A study of Mus musculus with 12 samples.

Results

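The late cornified envelope (Lce) and small proline-rich (Sprr) genes were followed in tail tip fibroblasts of newborn mice. The members were all rows of the deposited expression table whose symbol starts with Lce or Sprr, 37 of 24132 rows, of which 20 were Lce and 17 Sprr. The families were chosen by earlier RPKM values of the same libraries, in which Lce1h, Lce1i and Sprr2k stood among the largest falls against wild type. The differences of the members between genotypes are therefore given as a description, and calls of the fit across all genes support nothing about them.

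Polyadenylated RNA was sequenced from wild-type cells, from Hotair heterozygous cells and from Hotair knockout cells, all of mice backcrossed to C57BL6. Each genotype had 2 libraries. The labels do not say whether these came from separate animals or cultures, so the spread between them may be technical. Hotair, a long noncoding RNA of the HoxC cluster, stood at 0.247 and 0.183 RPKM in wild type, 0.213 and 0.172 in heterozygous cells and 0 in both knockout libraries. RPKM counts reads per kilobase of gene, scaled to the depth of the library. Hotair lies antisense to a HoxC gene, and whether the counting used strand is unknown here.

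Cornified envelope proteins are made late in the life of an epidermal keratinocyte. Transglutaminases crosslink involucrin, loricrin, Sprr and Lce proteins under the cell membrane into a tough shell. Their genes lie side by side in the epidermal differentiation complex, and Sprr genes are also known to be induced by stress in other cell types. Fibroblasts are not known for making a cornified envelope.

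The libraries held between 27900000 and 48100000 read equivalents (rounded), with the knockout libraries the deepest. All 16 fibroblast markers, among them Vim, Col1a1 and Fn1, were at 1 RPKM or more in every library. Their levels differed between genotypes, with 8 higher and 8 lower in both knockout than in both wild-type libraries. Those shares were 43.6% and 25% for all rows above 0. In wild-type, heterozygous and knockout cells, Lum had means of 2.31, 6.58 and 13.6 RPKM and Thy1 of 190.3, 123.9 and 94.8. Of 22 keratinocyte markers, 20 stayed under 1 RPKM in all libraries, and Dsg1a and Ly6d were at 0 throughout. The keratins Krt5 and Krt14, which define basal keratinocytes, had wild-type means of 0.0233 and 0.0613 RPKM. The summed level of the keratinocyte list was 4.58 to 4.79 RPKM in wild type, 7.09 to 7.22 in heterozygous and 7.26 to 7.42 in knockout cells. Perp and Sfn made up most of that sum, and Krt14, Krt17 and Itgb4 were lower in both knockout than in both wild-type libraries.

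As families, both groups of genes were highest in wild-type cells. The 20 Lce rows summed to 32.7 and 29.4 RPKM in wild type, to 5.6 and 5.8 in heterozygous and to 7.9 and 7.17 in knockout libraries. Heterozygous cells thus held 18.4% and knockout cells 24.3% of the wild-type Lce sum. The 17 Sprr rows summed to 5.74 and 6.24 RPKM in wild type, 1.13 and 0.841 in heterozygous and 2.76 and 2.9 in knockout cells. For Sprr the shares were 16.5% and 47.3% of wild type. In both families the summed level was lowest in the heterozygous libraries, and the knockout libraries lay between. For Lce this order came mainly from Lce1h (means of 1.9 RPKM in heterozygous and 3.11 in knockout cells) and Lce1i (0.824 and 1.55). Of the 20 Lce rows, 5 were higher and 4 (Lce1a2, Lce3d, Lce3e and Lce3f) lower in both knockout than in both heterozygous libraries. These shares were 34.7% and 28.2% for all rows above 0. The Lce3 rows summed to a mean of 0.21 RPKM in heterozygous and 0.129 in knockout cells.

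A mean of 1 RPKM or more in some genotype was reached by 9 members, 7 Lce and 2 Sprr. Lce1b, at a wild-type mean of 1.02 RPKM, was the lowest of these, and Sprr2h, at 0.841, the highest of the other 28. Sprr4 and Lce6a were at 0 in every library. By the order of genes in RefSeq (GRCm38.p6), all members with a position there lie in one block of chromosome 3, Sprr genes first and Lce genes after. The 3 highest Lce rows, Lce1g, Lce1h and Lce1i, are direct neighbours in that order. In the plot of means along the block, the wild-type mean was the highest for each gene from Lce1a1 to Lce1m apart from 2310050C09Rik.

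**Figure D1:**
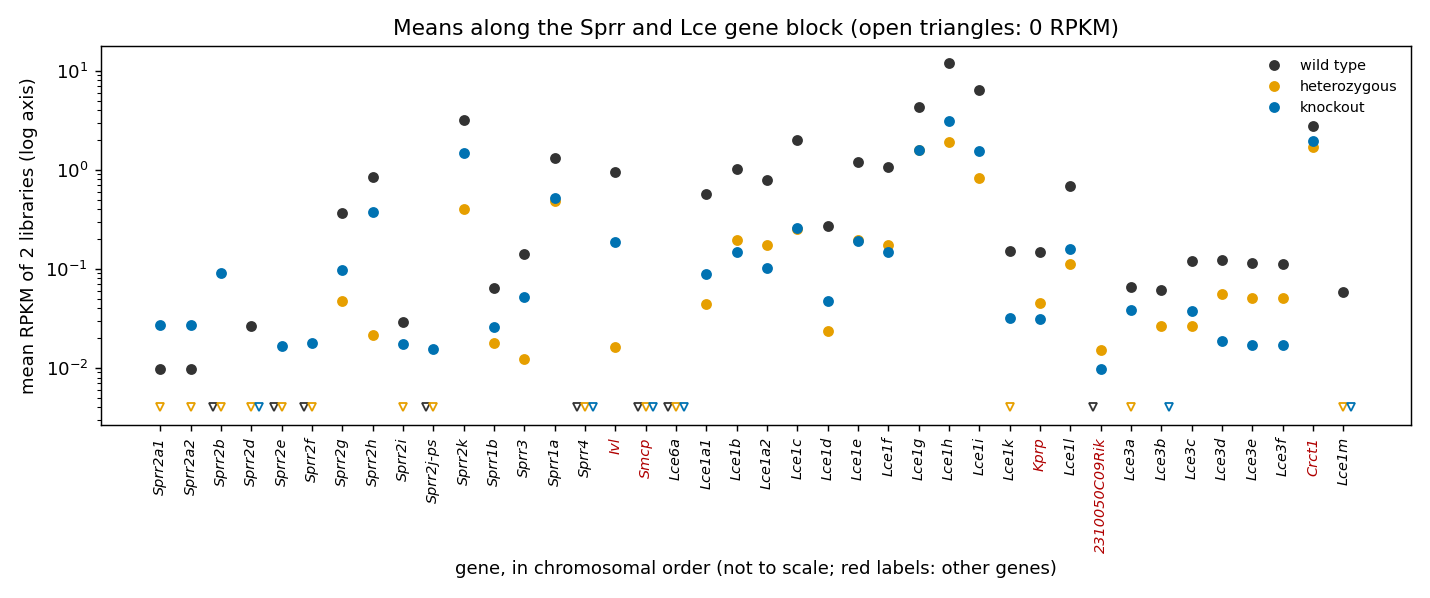
Mean RPKM of the 2 libraries of each genotype (y axis, log scale) for the genes of the Sprr and Lce block in chromosomal order (x axis, not to scale). Filled points are means above 0, open triangles mark means of 0, and red labels are genes of other families. Lce1h reaches 11.9 RPKM in wild type, and Lce1g and Lce1i stand on either side of it at 4.26 and 6.45.

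Lce1h, a precursor protein gene of the envelope, was the highest member. It stood at 12.3 and 11.5 RPKM in wild type, 2.16 and 1.64 in heterozygous and 3.26 and 2.96 in knockout cells. Each wild-type value rests on at least 113.9 read equivalents and each heterozygous value on at least 18.1. All libraries of the 3 genotypes were separate, with wild type high, knockout lower and heterozygous lowest. On the log2(RPKM + 1) scale the difference was -2.16 ± 0.09 (SE of the limma fit) for heterozygous against wild type and -1.65 ± 0.09 for knockout against wild type. This scale understates the change of low genes, and the means themselves were 6.28-fold and 3.84-fold lower.

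Lce1i, a close relative of Lce1h, stood at 6.69 and 6.2 RPKM in wild type, 1 and 0.644 in heterozygous and 1.74 and 1.36 in knockout cells. The order was the same as for Lce1h, again with no overlap between genotypes. Its mean was 7.82-fold lower in heterozygous and 4.15-fold lower in knockout than in wild-type cells. Lce1g, the third of the neighbours, stood at 4.21 and 4.31 RPKM in wild type, 1.46 and 1.73 in heterozygous and 1.71 and 1.42 in knockout cells. Here the heterozygous and knockout libraries overlapped, and both were below wild type. The log2 difference of Lce1g was -1.02 ± 0.07 in heterozygous and -1.04 ± 0.07 in knockout cells.

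The sequence before the start of Lce1g, Lce1h and Lce1i is shown because these neighbours carry most of the Lce signal, and Lce1l is shown as a member outside the trio. Each is the 150 bases upstream of the RefSeq gene start (GRCm38.p6, minus strand), at chr3:92765066-92765215 for Lce1h, chr3:92778900-92779049 for Lce1i, chr3:92752339-92752488 for Lce1g and chr3:92851287-92851436 for Lce1l. Capitals mark ATAAAA, which resembles a TATA box and was picked after these promoters were seen.
Lce1h: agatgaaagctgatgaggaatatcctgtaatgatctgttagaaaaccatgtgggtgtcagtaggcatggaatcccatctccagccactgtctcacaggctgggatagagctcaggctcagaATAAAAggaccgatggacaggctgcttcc
Lce1i: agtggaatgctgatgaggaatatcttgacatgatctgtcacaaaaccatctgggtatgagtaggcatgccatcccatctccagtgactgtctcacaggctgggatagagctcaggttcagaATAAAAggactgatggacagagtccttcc
Lce1g: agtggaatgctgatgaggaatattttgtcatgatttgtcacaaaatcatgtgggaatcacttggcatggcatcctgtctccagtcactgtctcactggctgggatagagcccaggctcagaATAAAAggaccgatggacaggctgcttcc
Lce1l: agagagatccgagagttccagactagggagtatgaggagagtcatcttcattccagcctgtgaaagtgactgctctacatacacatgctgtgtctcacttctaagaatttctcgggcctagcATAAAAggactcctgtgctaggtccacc
Over 250 upstream bases, Lce1g was 84.5% identical to Lce1h and 85.6% identical to Lce1i, and Lce1h and Lce1i were 81.3% identical. The 66 pairs of Lce1 promoters ranged from 50.5% to 85.6% with a median of 64.2%. Pairs of 1 Lce1 and 1 Sprr2 promoter had a median of 52%.

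The other Lce1 genes stood at lower levels. Lce1c stood at 2.09 and 1.89 RPKM in wild type, 0.205 and 0.306 in heterozygous and 0.226 and 0.295 in knockout cells. Lce1e stood at 1.48 and 0.933 RPKM in wild type, 0.125 and 0.266 in heterozygous and 0.173 and 0.21 in knockout cells. Lce1f stood at 1.15 and 0.98, then 0.0837 and 0.264, then 0.145 and 0.15 RPKM in the same order of genotypes. For each of these genes both other genotypes lay under wild type and overlapped each other.

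Lce1b stood at 1.17 and 0.866 RPKM in wild type, 0.0463 and 0.341 in heterozygous and 0.0962 and 0.198 in knockout cells. Its heterozygous libraries lay far apart and rest on at least 1 and 6.89 read equivalents. As a share of the wild-type mean, Lce1b, Lce1c, Lce1e and Lce1f held between 12.9% and 19% in heterozygous and between 13.1% and 15.9% in knockout cells. Lce1g held 37.4% and 36.8%, Lce1h 15.9% and 26.1%, and Lce1i 12.8% and 24.1%. Of these 3 neighbours, Lce1g kept the largest share of its wild-type level in both genotypes, though close copies can share reads. The lowest values of Lce1c, Lce1e and Lce1f, in the first heterozygous library, rest on at least 2.47, 1.49 and 2 read equivalents. Such counts cannot set the shares of these genes apart.

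**Figure D2:**
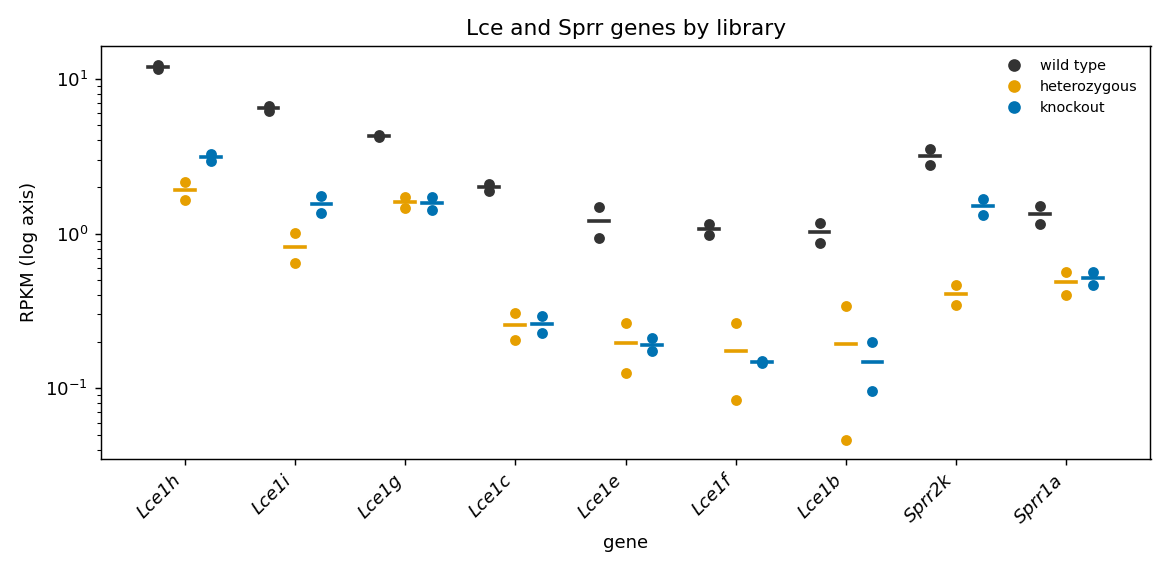
RPKM of each library (y axis, log scale) for the 9 members with a mean of 1 RPKM or more in some genotype (x axis). Points are libraries, short lines are means of 2, and the 2 wild-type points of every gene lie above all 4 others.

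Among the Lce1 genes under 1 RPKM, Lce1a2 had a wild-type mean of 0.783 ± 0.000489 RPKM (SD, n = 2), Lce1l 0.682 ± 0.152 and Lce1a1 0.571 ± 0.176. Their heterozygous means were 0.172, 0.113 and 0.0446 RPKM and their knockout means 0.103, 0.157 and 0.0893. Lce1d, Lce1k and Lce1m were at 0.274, 0.151 and 0.0583 RPKM in wild type. Lce1k and Lce1m were at 0 in both heterozygous libraries, and Lce1m also in both knockout libraries. All 13 Lce1 rows were lower in both libraries of heterozygous and of knockout cells than in both wild-type libraries.

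The 6 Lce3 genes, whose human relatives are known from skin repair, were barely detected and rest on a few reads each. Their summed level was 0.574 and 0.62 RPKM in wild type, 0.259 and 0.162 in heterozygous and 0.18 and 0.0779 in knockout cells. Lce3d, Lce3e and Lce3f kept one fixed ratio in all 5 libraries in which they were above 0, as rows would that count the same reads. Similar copies can share reads, so the values of single members are uncertain. The sources used here do not say how reads that match several copies were assigned.

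Sprr2k led the Sprr family. It stood at 2.77 and 3.53 RPKM in wild type, 0.462 and 0.346 in heterozygous and 1.67 and 1.32 in knockout cells. Its 3 genotypes were separate, with knockout in the middle. The mean was 7.79-fold lower in heterozygous than in wild-type cells but 2.1-fold lower in knockout cells, and knockout cells held 3.7 times the heterozygous level. The log2 differences were -1.56 ± 0.11 for heterozygous and -0.73 ± 0.11 for knockout against wild type, and 0.83 ± 0.11 for knockout against heterozygous.

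Sprr2h had the same order at lower levels, with 0.838 and 0.844 RPKM in wild type, 0 and 0.0429 in heterozygous and 0.329 and 0.427 in knockout cells. Its knockout values correspond to at least 11.8 and 14.7 read equivalents. Sprr2g, annotated as a transcribed pseudogene, stood at 0.413 and 0.327 RPKM, then 0.0461 and 0.0492, then 0.0637 and 0.131. Sprr3 was at 0.137 and 0.146 RPKM in wild type, at 0.0246 and 0 in heterozygous and at 0.034 and 0.071 in knockout cells.

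Sprr1a, known from stressed and regenerating cells outside skin, was also highest in wild type. It stood at 1.51 and 1.15 RPKM in wild type, 0.564 and 0.402 in heterozygous and 0.466 and 0.567 in knockout cells. The heterozygous and knockout libraries overlapped, at 36.3% and 38.9% of the wild-type mean. They rest on at least 7.42 and 4.96 read equivalents in heterozygous and 8.86 and 10.3 in knockout cells. So few reads cannot exclude a difference between these genotypes. Its relative Sprr1b had a mean of 0.0636 RPKM in wild type, 0.0178 in heterozygous and 0.0259 in knockout cells. For Sprr1a the log2 difference was -0.65 ± 0.09 in heterozygous and -0.62 ± 0.09 in knockout cells.

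**Figure D3:**
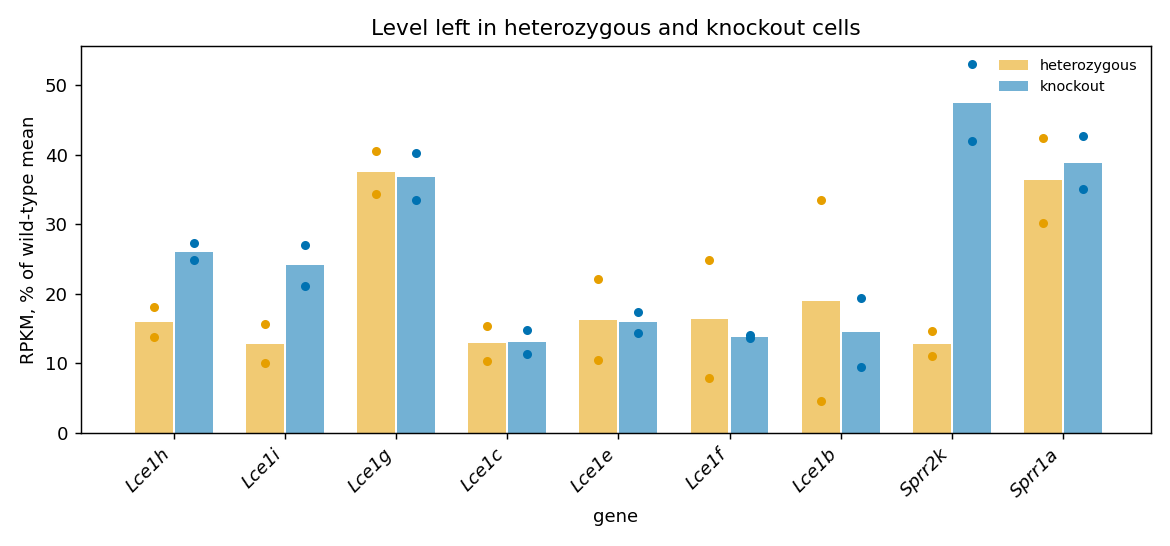
Level in heterozygous and knockout cells as a percentage of the wild-type mean RPKM (y axis from 0) for the 9 members with a mean of 1 RPKM or more in some genotype. Bars are means of 2 libraries and points are libraries. Sprr2k stands at 12.8% in heterozygous and 47.5% in knockout cells, whereas Lce1c stands at 12.9% and 13.1%.

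A further set of Sprr2 rows was above wild type in both knockout libraries, on a few reads. Sprr2a1, Sprr2a2 and their duplicate entries in the table had identical values in every library and count as 1 measurement. They were at 0.00952 and 0.0101 RPKM in wild type, 0 in both heterozygous and 0.0293 and 0.0243 in knockout cells, which corresponds to 1 read equivalent in each wild-type library and to 5 and 3.97 in the knockout libraries. Sprr2b was at 0 in wild-type and heterozygous cells and at 0.0297 and 0.152 RPKM in knockout cells. Sprr2d, Sprr2e, Sprr2f, Sprr2i and Sprr2j-ps were above 0 in at most 2 libraries. These levels are too close to single reads to set the rows apart from the rest of the family.

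The 150 bases before the start of the main Sprr members, Sprr2k, Sprr2h and Sprr1a, are shown for comparison with the Lce1 promoters. In Sprr2k and Sprr2h, as in Lce1h and Lce1i, the genotypes were separate. In Sprr1a the heterozygous and knockout libraries overlapped, on few reads. Whether the promoter letters bear on these levels was not tested. The sequences lie at chr3:92432432-92432581 (plus strand) for Sprr2k, chr3:92385535-92385684 (plus strand) for Sprr2h and chr3:92485882-92486031 (minus strand) for Sprr1a, from RefSeq with build GRCm38.p6. Capitals mark TATAAA, the TATA box, in all of them, ATTTGCAT, the octamer bound by POU factors, in Sprr2k and Sprr2h, and TGANTCA, the AP-1 motif, in Sprr1a. Sprr2k and Sprr2h hold TGANTCA too, just outside the bases shown, from 196 and 182 bases upstream in Sprr2k and from 198 in Sprr2h.
Sprr2k: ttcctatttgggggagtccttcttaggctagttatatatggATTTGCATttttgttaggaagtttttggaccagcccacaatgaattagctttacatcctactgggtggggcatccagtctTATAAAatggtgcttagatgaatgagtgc
Sprr2h: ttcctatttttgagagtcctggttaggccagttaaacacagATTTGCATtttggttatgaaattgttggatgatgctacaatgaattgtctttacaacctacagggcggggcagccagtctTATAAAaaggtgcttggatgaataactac
Sprr1a: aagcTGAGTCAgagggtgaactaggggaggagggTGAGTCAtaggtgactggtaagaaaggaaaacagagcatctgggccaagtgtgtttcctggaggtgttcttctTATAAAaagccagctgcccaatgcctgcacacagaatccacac
Sprr2h and Sprr2k were 80.6% identical over 250 upstream bases.

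Motifs were counted on both strands of the 250 bases upstream, for the 32 members with a RefSeq promoter (19 Lce and 13 Sprr) and for all 32851 promoters of the table. TGANTCA was found in 9 of 13 Sprr and 0 of 19 Lce promoters, against 6.75% of all promoters. The octamer, a word chosen after the promoters were seen, was in 7 Sprr promoters, all of them Sprr2, in 0 Lce promoters and in 1.6% of all. TATAAA was in 10 Sprr and 4 Lce promoters, against 12.4% of all. ATAAAA, which can overlap TATAAA, was in 7 of 13 Sprr and 18 of 19 Lce promoters (11 of 12 for Lce1), against 17% of all. CACCC, a Klf motif, was in 5 Sprr and 6 Lce promoters, and in 52% of all. TGACNNNGC, the core of the antioxidant response element, was in 2 Sprr and 5 Lce promoters, against 10.2%. These matches describe letters and not binding.

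Counted over all 37 members, 28 were lower in both heterozygous libraries than in both wild-type libraries and 0 were higher. With the identical Sprr2a rows and the Lce3 rows of fixed ratio each counted once, 32 members remain, and 23 of them were lower. Of the 18888 rows above 0 in some library, 20.4% were lower in this way and 39.5% higher. In knockout cells 24 of the 37 (22 of the 32) were lower in both libraries than in wild type, where 25% of all rows were. The 5 higher ones were Sprr2b and the 4 identical Sprr2a rows, so 2 of the 32, beside 43.6% of all rows. Between knockout and heterozygous cells, 14 of the 37 (11 of the 32) were higher in both knockout libraries, against 34.7% of all rows. The 4 lower ones were Lce1a2 and the Lce3d, Lce3e and Lce3f rows, so 2 of the 32, against 28.2%. Since the members were chosen with these differences known, nothing is read from the counts.

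The fit across genes took rows at 1 RPKM or more in at least 2 libraries, which 6 of the 37 members met (Lce1c, Lce1g, Lce1h, Lce1i, Sprr1a and Sprr2k). Lce1c and Sprr1a met it through the wild-type libraries alone, so they had to differ. All 6 were called lower by limma (Benjamini-Hochberg adjusted over 10897 genes, threshold 0.05) in heterozygous and in knockout against wild-type cells, beside 17.1% and 26.6% of all genes. The choice of members and the filter fixed these calls, and nothing is read from them. In knockout against heterozygous cells Lce1h, Lce1i and Sprr2k were called higher, 3 of the 6, and 0 lower, beside 26.4% and 25.4% of all genes. That contrast shares its libraries with the other ones and is not independent of the choice either.

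The neighbours and partners of these genes were taken from lists of other epidermal genes. The lists, too, were written with earlier results of these libraries known, so their p-values are not independent evidence. Ivl, the gene of the envelope protein involucrin, lies between Sprr4 and the Lce genes. It stood at 0.863 and 1.03 RPKM in wild type, 0.0156 and 0.0167 in heterozygous and 0.182 and 0.19 in knockout cells. Its genotypes were separate in the order of Lce1h and Sprr2k, with heterozygous lowest, but it lay under the filter of the test. In wild type its values rest on at least 24.6 and 27.5 read equivalents.

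Kprp, a keratinocyte proline-rich protein gene between Lce1k and Lce1l, was at 0.135 and 0.158 RPKM in wild type, 0.0551 and 0.0353 in heterozygous and 0.0381 and 0.0239 in knockout cells. Crct1, a cysteine-rich gene beside Lce1m, stood at 2.71 and 2.82 RPKM in wild type, 1.31 and 2.09 in heterozygous and 2.12 and 1.79 in knockout cells. It fell by a log2 difference of -0.50 ± 0.13 in heterozygous cells (limma, adjusted p = 0.0146) and -0.35 ± 0.13 in knockout cells (adjusted p = 0.0422). The knockout call was lost in 7 of 13 other fits, among them each fit without 1 wild-type or 1 knockout library, where the log2 difference ranged from -0.43 to -0.27 and the adjusted p from 0.0555 to 0.187. The heterozygous call was lost without the second wild-type library (-0.47, adjusted p = 0.0652) and without a filter on low values (adjusted p = 0.0633).

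The libraries of Lor, the gene of the major envelope protein loricrin, overlapped between genotypes. Lor had a mean of 0.261 RPKM in wild type, 0.251 in heterozygous and 0.239 in knockout cells. Of the 14 measured genes in this list, Flg2, Hrnr, Rptn, Smcp and Pglyrp4 were at 0 in every library. Tchh, which encodes the hair protein trichohyalin, stood at 0.234 and 0.112 RPKM in wild type, 0.19 and 0.147 in heterozygous and 0.311 and 0.272 in knockout cells. Both knockout libraries of Tchh were above all others.

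**Figure D4:**
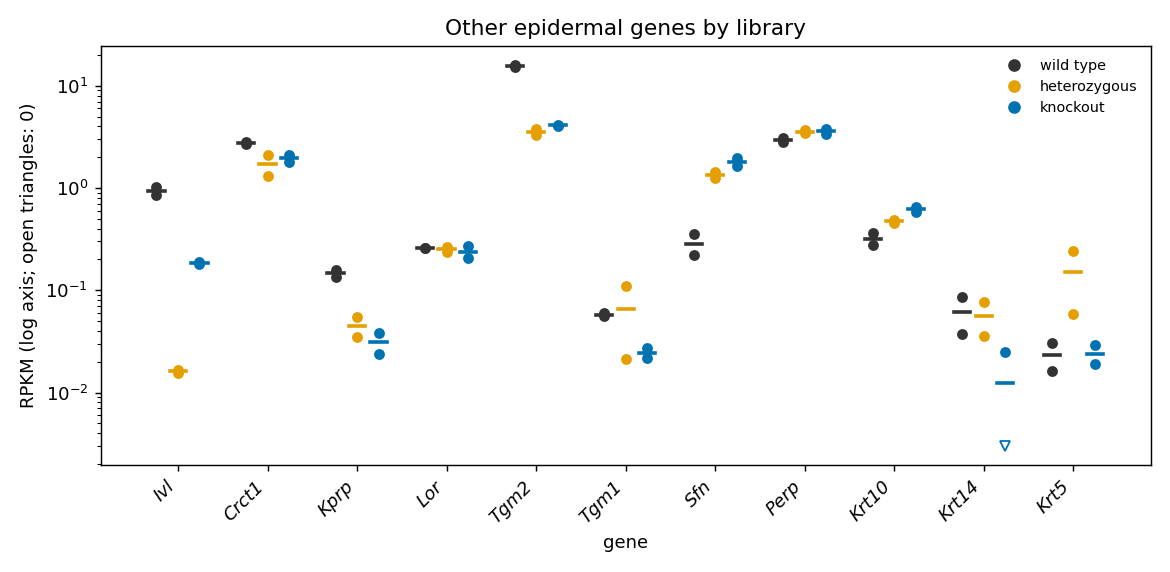
RPKM of each library (y axis, log scale) for epidermal genes outside the Lce and Sprr families (x axis). Points are libraries, short lines are means of 2, and the open triangle marks 0. Ivl and Tgm2 are lower in both heterozygous and knockout cells, Lor is level, and Sfn, Perp and Krt10 are higher than in wild type.

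Among transglutaminases, the enzymes that crosslink the envelope, the epidermal Tgm1 and Tgm3 had wild-type means of 0.0576 and 0.0123 RPKM. Tgm2, the widely expressed tissue transglutaminase, was the highest, at 16 and 15.4 RPKM in wild type, 3.32 and 3.81 in heterozygous and 4.07 and 4.16 in knockout cells. It fell by a log2 difference of -1.87 ± 0.06 in heterozygous (limma, adjusted p = 7.6e-07) and -1.70 ± 0.06 in knockout cells (adjusted p = 5.54e-07). Its heterozygous level was 22.8% and its knockout level 26.3% of wild type. Tgm4, the other transglutaminase that passed the filter, fell by a log2 difference of -0.24 ± 0.06 in knockout cells (limma, adjusted p = 0.0086).

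Of the 22 keratinocyte markers, 3 were lower and 6 higher in both knockout libraries than in both wild-type libraries, and 1 lower and 8 higher in the heterozygous ones. Of all rows above 0 in some library, 25% were lower and 43.6% higher in this way in knockout cells. In heterozygous cells these shares were 20.4% and 39.5%. Sfn, which encodes the stratifin protein of epithelia, stood at 0.352 and 0.22 RPKM in wild type, 1.24 and 1.43 in heterozygous and 1.95 and 1.64 in knockout cells. It passed the filter only through the genotypes in which it was high, so its test is not used. Itgb4, a hemidesmosome integrin, stood at 0.598 and 0.626 RPKM in wild type, 0.803 and 0.731 in heterozygous and 0.575 and 0.497 in knockout cells. Perp, a desmosome gene and the other marker that passed, had a mean of 2.97 RPKM in wild type, 3.57 in heterozygous and 3.6 in knockout cells. Perp was called higher in both comparisons with wild type (limma, adjusted p = 0.0283 in heterozygous and 0.0175 in knockout cells). After median scaling or quantile normalization Perp was no longer called in either comparison.

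These lists (genes of the epidermal complex, envelope and plaque proteins, transglutaminases, cornification enzymes and keratinocyte markers) hold 82 genes, of which 79 were in the table and 18 passed the filter. In knockout against wild-type cells 7 were called higher and 9 lower, beside 40.6% and 26.6% of all genes (67.2% in either direction). The split was 4 and 10 after median scaling and 6 and 10 after quantile normalization. In heterozygous against wild-type cells 7 were called higher and 8 lower, beside 35.5% and 17.1% of all genes (52.6% in either direction). There the split was 5 and 9 after median scaling and 6 and 8 after quantile normalization. Their median log2 difference was -0.16 in knockout and -0.006 in heterozygous cells, beside 0.06 and 0.07 for all genes. Between knockout and heterozygous cells 4 were higher and 5 lower, with 51.8% of all genes called.

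Single epidermal genes outside the families changed in different directions. Among envelope and plaque proteins, Anxa1, a phospholipid-binding substrate of transglutaminase, fell from a mean of 158.9 RPKM in wild type to 103.6 in heterozygous cells (log2 difference -0.61 ± 0.03, limma, adjusted p = 9.49e-06). In knockout cells it rose to 176.4 RPKM (0.15 ± 0.03, adjusted p = 0.00434). Of the 6 envelope and plaque genes tested in knockout cells, 4 were called higher and 2 lower, beside 40.6% and 26.6% of all genes. The split was 2 and 2 after median scaling and 4 and 2 after quantile normalization. Sbsn, which encodes suprabasin, rose from 23.8 RPKM in wild type to 28.3 in heterozygous and 29.7 in knockout cells (adjusted p = 0.00158 and 0.000257, limma). Ctsd, a lysosomal protease of cornification, fell from 466.1 to 376.2 RPKM in knockout cells (-0.31 ± 0.01, limma, adjusted p = 2.64e-06).

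S100 genes of the same complex, which encode calcium-binding proteins, gave 3 higher and 4 lower of 9 in knockout and 5 higher and 3 lower of 9 in heterozygous against wild-type cells. S100a4 rose from 798.4 RPKM in wild type to 861.4 in heterozygous and 1249 in knockout cells (limma, adjusted p = 0.000125 and 2.13e-08). S100a11 fell from 1105 RPKM in wild type to 985.4 and 952.2 (adjusted p = 5.65e-06 and 8.13e-07). The shares of all genes called higher and lower were 40.6% and 26.6% in knockout and 35.5% and 17.1% in heterozygous cells. The heterozygous split of the S100 list was 2 higher and 3 lower after median scaling and 6 higher and 2 lower after quantile normalization.

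Of 15 regulators of epidermal differentiation that passed the filter, 10 were called higher and 0 lower in knockout against wild-type cells, and 9 and 0 in heterozygous cells. The shares of all genes called higher were 40.6% and 35.5%. After median scaling the counts were 9 higher and 1 lower in knockout and 5 higher and 3 lower in heterozygous cells. After quantile normalization they were 11 and 1 in knockout and 7 and 1 in heterozygous cells. Fosl1, an AP-1 subunit, rose from a mean of 33.2 RPKM in wild type to 46.5 in heterozygous and 42.5 in knockout cells (limma, adjusted p = 1.75e-05 and 3.28e-05). Junb, another subunit, rose from 37.7 to 46.5 RPKM in knockout cells (adjusted p = 4.97e-05) and had a mean of 37.5 in heterozygous cells (adjusted p = 0.848). Stat3 had means of 44.8, 45 and 44.6 RPKM in the order wild type, heterozygous, knockout, with adjusted p of 0.904 and 0.835. Trp63, which encodes the p63 regulator of keratinocytes, lay under the filter and was not tested. Its means were 0.00852, 0.0485 and 0.0692 RPKM in the same order, and at levels this low their ratio is uncertain.

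Markers of other cell types were summed beside these results. Myeloid and osteoclast markers summed to 30.8 to 32.1 RPKM in wild type, 22.8 to 24.3 in heterozygous and 102.9 to 103.1 in knockout cells. Ctsk made up most of the wild-type and heterozygous sums, with means of 19.3, 14.3 and 11 RPKM in that order of genotypes. Of these 15 markers, Ctsk alone was lower in both knockout than in both wild-type libraries, and 14 were higher. The shares of all rows above 0 were 25% and 43.6%. Schwann cell markers summed to 25.7 to 25.8, 31 to 31.7 and 14.5 to 15.2 RPKM. Most of this was Ngfr, with means of 20.5, 23.6 and 11.1 RPKM. Of the 6 Schwann markers, 3 were lower and 2 higher in both knockout libraries than in wild type. Skeletal muscle markers summed to 245.1 to 246.6 RPKM in wild type and to 158.7 to 163 and 161.7 to 162.4 in the other genotypes, nearly all of it Acta1. Melanocyte markers summed to at most 1.15 RPKM and endothelial markers to at most 0.255 RPKM in any library. The part of these differences in the Lce and Sprr levels was not tested. In bulk RNA, fewer cells of a type and less RNA per cell cannot be told apart.

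Among the 5 genes outside the families whose levels over the 6 libraries were most like the mean of the 6 members that passed the filter were Gm6682, Acta2, 1500015O10Rik and Oas1g, with Pearson correlations from 0.997 to 0.998. The 6 values form 3 pairs of replicates, so this describes an order of genotypes and carries no p. Acta2, the smooth muscle actin, had a mean of 1974 RPKM in wild type, 1020.5 in heterozygous and 1132 in knockout cells. Oas1g, an interferon-induced gene, had means of 1.26, 0.0534 and 0.278 RPKM in that order.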

How the data were processed

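TopHat and mm9 are the aligner and build named in the submitters' processing notes. Libraries were poly(A)-selected and made by a dUTP protocol, per the labels' protocols. The deposited table gives 1 value per symbol and library, from columns named for coverage tracks, with no unit in its header. The deposited values behave as RPKM: their steps give whole totals of aligned bases per library when a read is 74 bases. The counter, its use of strand and its handling of reads that match several copies are unknown here. Read equivalents of a gene use the smallest gene length that makes its bases whole in every library, and are lower limits.

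Over 11163 genes the replicates' mean squared difference was 1.14, 1.25 and 1.59 times counting noise in wild type, heterozygous and knockout cells. A robust estimate was 0.811, 0.89 and 0.895, and 34, 45 and 34 genes differed by over 4 SD. All of these are lower limits, as the read equivalents are, so a spread under counting noise is not shown. These values do not show that the libraries are separate biological samples. Each genotype was entered as 2 libraries. p-values measure only the spread between them. The limma test (version 3.58.1, R 4.3.3) used log2(RPKM + 1), 3 group means, trended eBayes and 3 residual degrees of freedom, two-sided. It took genes reaching 1 RPKM in 2 or more of the 6 libraries and was tested on simulated data. Promoters were aligned with Biopython 1.88.

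Members and lists were chosen with earlier results of these data known. Members with a genotype mean of 1 RPKM or more are given by library. From each list, up to 4 genes with the highest mean and those called at 2-fold or more could be named. Outside that rule, and after their values were seen, Kprp, Krt5, Krt14, Krt17, Tgm3, Trp63, Dsg1a, Ly6d and the genes at 0 are named, with Sprr1b, Sprr2g, Sprr2h, Sprr3 and the low Lce1 genes. Alternatives were other pseudocounts, filters and scalings, a replicate block, no trend, and each library left out. ChIP-seq data of the series (6 libraries) were not used. Some genes that the naming rule selects are not reported here.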

Additional observations from a re-analysis of the deposited data

How the results depend on the processing

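Without a filter on low values, 20 members were called in knockout and 19 in heterozygous against wild-type cells, all lower (6 and 6 as reported), and 8 in knockout against heterozygous cells, all higher (3 as reported). In these fits 2940, 1811 and 3299 of 18888 genes were called in the same directions. With a filter at 5 RPKM, only 2 members (Lce1h and Lce1i) were tested, and these 2 were called lower in each comparison with wild type. Of all 6788 genes tested there, 2463 were called lower in knockout and 1561 in heterozygous cells. In either direction, that filter gave 4754 of 6788 genes in knockout against wild-type cells (7324 of 10897 as reported). Of 11 other epidermal genes tested, 10 were called in knockout and 9 in heterozygous cells against wild type (16 and 15 of 18 as reported). With 1 library left out at a time, the other epidermal genes called between knockout and heterozygous cells ranged from 5 to 9, with 5 without either knockout library (9 as reported). Such fits leave 1 library in a genotype, which is then assumed to vary like the others. Of all calls against wild type, 60.4% were higher in knockout and 67.5% in heterozygous cells. After median scaling these shares were 47.7% and 46.5%, and after quantile normalization 46.7% and 51.1%. Between knockout and heterozygous cells, log2 differences that were not called changed sign. Lce1c (0.01 as reported) ranged from -0.052 to 0.064 with 1 library left out, and was -0.18 after quantile normalization. Lce1g (-0.01) ranged from -0.096 to 0.066. Sprr1a (0.03) ranged from -0.045 to 0.11 and was -0.083 after quantile normalization. Crct1 (0.14) ranged from -0.067 to 0.36, called higher without the second heterozygous library. Same-numbered libraries did not deviate together (correlations -0.088, -0.062 and 0.065). By the lower limits given above, replicates differed by about as much as counting noise. If the spread is mostly such noise, these correlations cannot tell whether the numbers pair the samples. The replicate block gave 6, 6 and 3 members called. Members near 1 read per library are limited by depth.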
